A study of Mus musculus with 7 samples.

Results

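The PPAR, ERR and PGC-1 regulators are nuclear receptors, coactivators and mitochondrial transcription factors that set how much fat the heart burns and how much mitochondrial machinery it makes. The 10 genes described here are Ppara, Ppard, Pparg, Ppargc1a, Ppargc1b, Esrra, Esrrb, Esrrg, Nrf1 and Tfam. They were taken by name, 10 of the 45616 genes and unnamed transcripts on the array, and every non-control probe whose accession maps to one of them was read, which gave 18 of 56605 probes. Of these, 17 entered the fit, at least 1 for each of the 10 genes, and each of the 17 was well above background on 7 of 7 arrays. The last probe, designed for an Nrf1 transcript, was not well above background on any array.

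The peroxisome proliferator-activated receptors (PPARs) are switched on by fatty acids and bind DNA as partners of the retinoid X receptors, mainly at genes of fatty acid uptake and oxidation. The oestrogen-related receptors (ERRs) have no known natural hormone, and both receptor families depend on the PGC-1 coactivators for strength. PGC-1 also acts on NRF1, which drives nuclear genes of respiration and Tfam, whose protein packages and transcribes mitochondrial DNA. Akt is the kinase through which insulin restrains several of these factors, so the comparison asks how their transcripts stand once cardiomyocytes lose Akt1 and Akt2.

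RNA came from the heart apex of male C57Bl/6 mice, with 1 single-colour Agilent array per mouse. The 3 double knockout mice (DKO) were homozygous for loxP-flanked Akt1 and Akt2 and heterozygous for MerCreMer, a tamoxifen-activated recombinase under the alpha myosin heavy chain promoter. The 4 control mice carried the heterozygous MerCreMer transgene without the floxed alleles. All received 5 daily doses of 500 µg hydroxytamoxifen and were sampled 10 days after induction at 3 months of age, and no other treatment was given. Because the recombinase is made in cardiomyocytes and whole apex tissue was extracted, RNA of other cells enters every value, and fewer cells of a type cannot be told apart from less RNA per cell.

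All 10 cardiomyocyte markers were well above background on each of the 7 arrays. From 50.9% to 55.7% of the probes per array reached that level, 0 spots were saturated, and precision is limited by how few arrays there are. The brightest probe of Akt2 lay at 13.61 to 13.78 in control and 11.61 to 11.67 in DKO hearts, whereas the brighter Akt1 probe lay at 14.40 to 14.55 and 14.60 to 14.68 (log2 signal). The position of these probes against the deleted exons was not analysed here, so they are no full check of the labels.

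None of the 10 regulators passed the test. A gene is called here when its adjusted p is below 0.05 (limma, two-sided, Benjamini-Hochberg over 23678 genes), and 4.7% of all genes tested were called (2.41% higher and 2.29% lower in DKO). Of the 10 regulators 0 were called, and 4 had an unadjusted p below 0.05, where 25.5% of all genes did. Control and DKO values were fully separate for 4 of the 10, against 25.7% of all genes tested. Of those 4, 1 was higher and 3 were lower in DKO, where 13.2% and 12.5% of all genes were. The median log2 difference (DKO minus control) was -0.09 over the 10 and -0.02 over all genes. The 95% intervals of the 10 differences ran from -0.91 at the lowest bound (Ppargc1b) to 0.59 at the highest (Esrrb) on the log2 scale, and larger changes lie outside all 10 intervals.

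**Figure D1:**
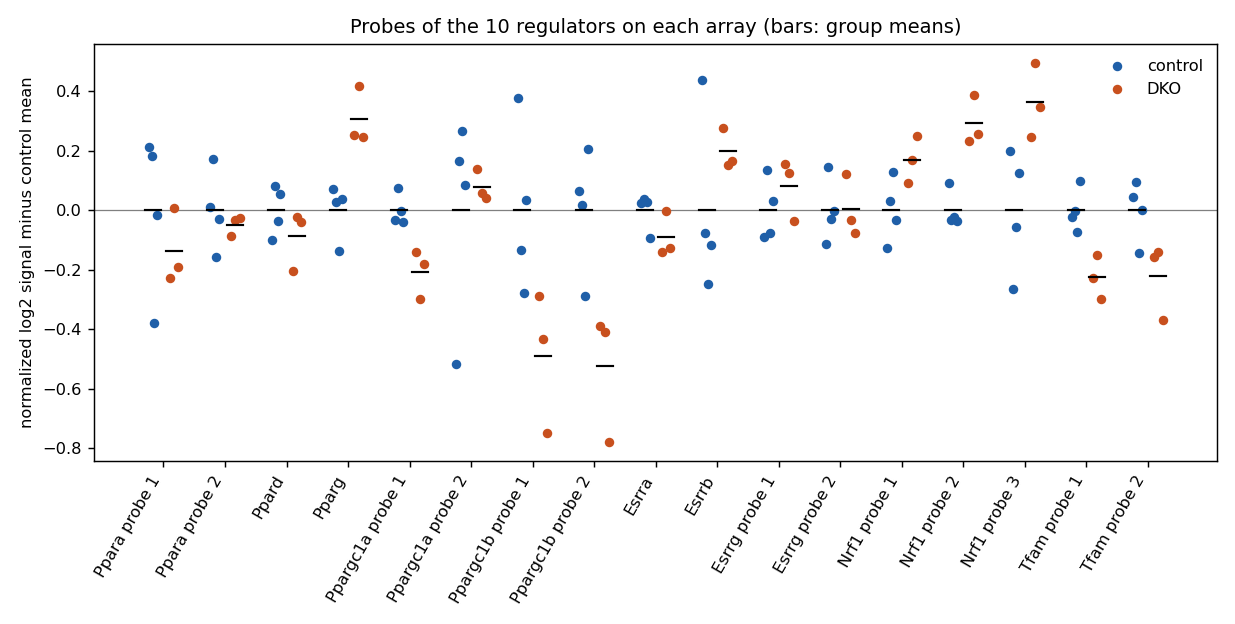
Normalized log2 signal of the 17 probes of the 10 regulators on each array, minus the control mean of the probe (blue, 4 control arrays; orange, 3 DKO arrays; black bars, group means). The 3 DKO values of Pparg lie above, and those of both Ppargc1b probes below, every control value, and the second Ppargc1a probe has a single low control array.

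Among the PPARs, only Pparg separated the groups. Pparg, the receptor best known for adipocyte formation and lipid storage, gave log2 signals of 10.73, 10.69, 10.52 and 10.70 in control replicates 1 to 4 and 10.91, 11.08 and 10.91 in DKO replicates 1 to 3. All DKO hearts were above all controls. The difference of 0.31 ± 0.09 (SE, n = 4 and 3; 95% interval 0.10 to 0.51), or 1.24-fold, did not pass (adjusted p = 0.0910 by limma). It passed under 1 other setting, trended and robust variances (adjusted p = 0.0441).

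Cells that carry Pparg outside the cardiomyocyte were measured beside it. Of 8 white adipocyte markers 3 were bright enough to test and 0 were called. Car3 entered through the DKO hearts, being above background on 1 of 4 control and 3 of 3 DKO arrays. Cfd differed by 1.04 ± 0.44 and Lep by -0.07 ± 0.15 (SE; adjusted p = 0.191 and 0.804 by limma), both with overlap. The summed linear signal of the 3 ranged from 394 to 509.5 in control and from 511 to 579.8 in DKO hearts. That sum includes Car3, which entered through the DKO hearts, so the narrow gap cannot be read as a difference in adipocytes. The defining adipocyte genes Adipoq and Plin1 were well above background on 1 and 0 of the 7 arrays. All 8 endothelial markers were higher in DKO hearts, 0 of them called, with summed signals of 55382 to 66237 in control and 67196 to 67469 in DKO. Of 8 mural markers 6 were higher and 2 lower, Acta2 at -0.41 ± 0.14 and Abcc9 at -0.16 ± 0.08 (SE). Groups did not overlap for 6 of the 8 (75% against 25.7% of all genes), 5 of them higher and 1 lower. The 1 called (12.5% against 4.7% of all genes) was the smooth muscle myosin Myh11, which rose by 0.63 ± 0.14 (SE; adjusted p = 0.0487 by limma). The mural median was 0.29, although the summed signals overlapped (75401 to 87231 in control, 72363 to 82202 in DKO). Of 8 fibroblast markers 7 were higher, with 0 called and a median of 0.17 (summed signals of 108353 to 114488 and 113463 to 133853). Of 8 macrophage markers 4 were higher and 4 lower, with 0 called and a median of 0.02 (summed signals of 32403 to 44017 and 29550 to 36034). The part of any of these cell types in the Pparg value was not tested.

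Ppara, the main PPAR of fat oxidation in heart, showed no separation. Its brighter probe gave 12.67, 12.64, 12.08 and 12.44 in control and 12.23, 12.46 and 12.27 in DKO hearts. Control replicate 3 was the lowest of all, so the groups overlapped, and the difference was -0.14 ± 0.16 (SE; 95% interval -0.51 to 0.23; adjusted p = 0.618 by limma). Without control replicate 3 it was -0.26, and without control replicate 1 it was -0.07. The dimmer Ppara probe differed by -0.05 ± 0.09.

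Ppard, the PPAR found in most tissues, gave 10.57, 10.75, 10.63 and 10.72 in control and 10.46, 10.65 and 10.63 in DKO hearts. The groups overlapped again, and the difference was -0.09 ± 0.08 (SE; 95% interval -0.29 to 0.11; adjusted p = 0.548 by limma). Without DKO replicate 1, the lowest array, it was -0.03.

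Both PGC-1 coactivators lay lower in all DKO hearts than in the controls on their brighter probes, and neither passed the test. Ppargc1b, which encodes PGC-1beta, had the largest difference of the 10 genes. Its brighter probe gave 12.78, 12.27, 12.13 and 12.44 in control and 12.12, 11.97 and 11.66 in DKO hearts. DKO replicate 1 lay just under control replicate 3, the lowest control, so the gap between the groups was narrow. The group means were 12.41 ± 0.28 (SD, n = 4) and 11.92 ± 0.24 (SD, n = 3), a difference of -0.49 ± 0.18 (SE; 95% interval -0.91 to -0.07) or 1.40-fold (adjusted p = 0.152 by limma).

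The second Ppargc1b probe, designed for another transcript model, showed a similar gap. It gave 9.70, 9.65, 9.35 and 9.84 in control and 9.25, 9.23 and 8.86 in DKO hearts, a difference of -0.52 ± 0.15 (SE) or 1.44-fold (adjusted p = 0.0939 over probes by limma). On both probes DKO replicate 3 was the lowest array. Without it the differences were -0.36 and -0.40.

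Ppargc1a encodes PGC-1alpha, the inducible coactivator that answers to exercise, cold and energy demand, and its probes did not move together. The brighter probe gave 12.74, 12.85, 12.77 and 12.74 in control and 12.64, 12.48 and 12.60 in DKO hearts, a difference of -0.21 ± 0.07 (SE; 95% interval -0.38 to -0.03) or 1.15-fold (adjusted p = 0.146 by limma). All DKO hearts lay below all controls on that probe. The dimmer one gave 10.40, 11.08, 11.18 and 11.00 in control and 11.06, 10.97 and 10.96 in DKO hearts. Its difference was 0.08 ± 0.19 (SE), and without control replicate 1, whose value stood far below the rest, it was -0.09. With the probes averaged the gene differed by -0.06 (adjusted p = 0.762 by limma).

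The 3 oestrogen-related receptors gave overlapping groups. Esrra, encoding ERRalpha, a PGC-1 partner and itself a PGC-1 target, gave 14.555, 14.57, 14.56 and 14.44 in control and 14.39, 14.53 and 14.40 in DKO hearts. Its difference was -0.09 ± 0.07 (SE; 95% interval -0.27 to 0.09; adjusted p = 0.484 by limma). It was -0.16 with quantile normalization and -0.19 with normexp and quantile normalization. Control replicate 4 lay among the DKO values, away from the other controls. Esrrg, encoding ERRgamma, the form that rises when the newborn heart turns to oxidative metabolism, differed by 0.08 ± 0.09 on its brighter probe and by 0.00 ± 0.09 on its dimmer one (adjusted p = 0.601 over genes for the first by limma). The brighter probe's value was 0.01 with slide row in the fit and from 0.05 to 0.14 with an array left out.

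Esrrb, known mostly from stem cells and the inner ear, gave 12.48, 11.97, 11.80 and 11.93 in control and 12.32, 12.20 and 12.21 in DKO hearts. Control replicate 1 was above every DKO heart and the other 3 controls were below all of them. The difference was 0.20 ± 0.16 (SE; adjusted p = 0.480 by limma), and without control replicate 1 it was 0.35 (adjusted p = 0.0848 by limma), whereas without control replicate 3 it was 0.12. With normexp background correction it was 0.39 ± 0.09 with the 75th percentile and 0.37 ± 0.08 with quantile normalization (SE; adjusted p = 0.0580 and 0.0536 by limma). Esrrb lies on chromosome 12, as does Akt1. It is the only one of the 10 genes on a chromosome that carries a targeted gene. Such chromosomes are named here and below because only the DKO mice carry the floxed alleles. For genes near them, an effect of linked DNA cannot be told apart from loss of Akt. Distances to Akt1 and Akt2 were not analysed here.

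**Figure D2:**
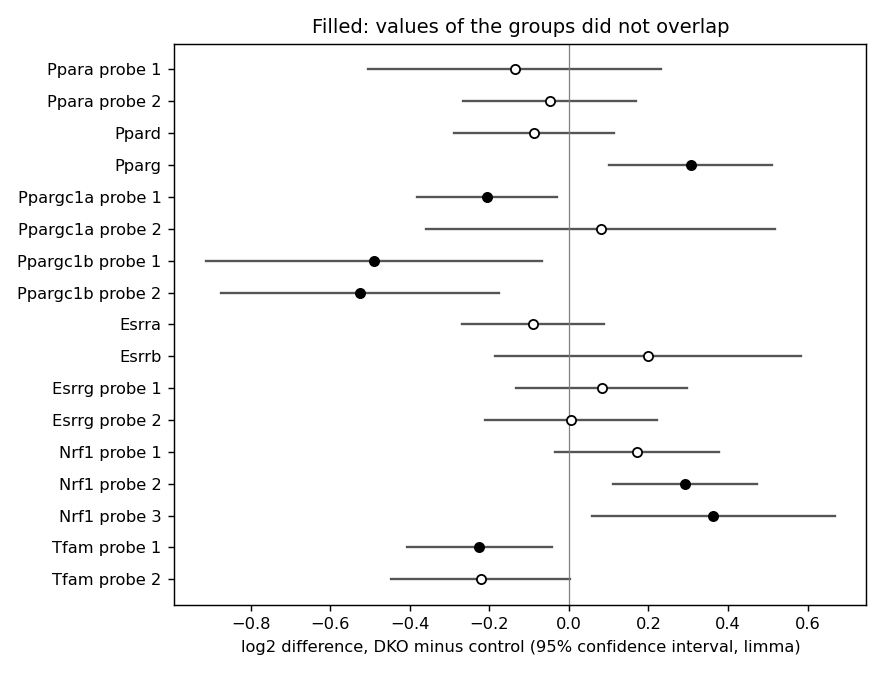
Log2 difference (DKO minus control) of each of the 17 probes with its 95% confidence interval from limma; filled points mark probes whose values did not overlap between the groups. Intervals of Pparg, both Ppargc1b probes, the brighter Ppargc1a and Tfam probes and both dimmer Nrf1 probes leave out 0, and none of the 17 passed after adjustment over all probes.

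Nrf1 and Tfam, which stand in sequence in the making of mitochondria, lay on opposite sides of 0. Nrf1 has 3 measured probes, designed for different transcripts. The brightest gave 8.72, 8.87, 8.97 and 8.81 in control and 8.94, 9.01 and 9.09 in DKO hearts, with overlap and a difference of 0.17 ± 0.09 (SE; 95% interval -0.03 to 0.38; adjusted p = 0.265 by limma). The second gave 8.01, 7.89, 7.90 and 7.88 in control and 8.15, 8.31 and 8.18 in DKO hearts, and the groups did not overlap. That difference was 0.29 ± 0.08 (SE; adjusted p = 0.0795 over probes by limma; 0.0488 with array weights). The dimmest of the 3 differed by 0.36 ± 0.13 (SE; adjusted p = 0.146 over probes by limma), also without overlap. With the 3 probes averaged the gene differed by 0.28 ± 0.08 (SE; adjusted p = 0.0885 by limma).

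Tfam was lower on both of its probes. The brighter gave 11.14, 11.16, 11.09 and 11.26 in control and 10.93, 11.01 and 10.86 in DKO hearts, so all DKO hearts were below all controls. The means were 11.16 ± 0.07 (SD, n = 4) and 10.94 ± 0.07 (SD, n = 3), and the difference was -0.23 ± 0.08 (SE; 95% interval -0.41 to -0.04) or 1.17-fold (adjusted p = 0.131 by limma). The dimmer probe gave 10.39, 10.44, 10.20 and 10.35 against 10.19, 10.21 and 9.98, a difference of -0.22 ± 0.10 (SE) with 1 DKO value barely inside the control range.

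Across all 17 probes, 8 were higher and 9 lower in DKO hearts, and 0 were called, where 4.4% of all 30466 probes tested were. Groups did not overlap for 7 of the 17, 3 of them higher and 4 lower, against 25.2% of all probes. Of the 6 genes with more than 1 measured probe, 5 had the same sign on every probe, the exception being Ppargc1a. The sign of the 10 gene values held in all 200 values recomputed from these same arrays with another setting or an array left out. Some single probes were less stable. With an array left out, the dimmer probe ran from -0.10 to 0.01 for Ppara, from -0.09 to 0.17 for Ppargc1a and from -0.05 to 0.05 for Esrrg. The other probes kept their sign in those fits.

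The proximal promoters of the regulators held few of the elements that link this family, which were also uncommon among all windows searched (at most 8.86% for any element). RefSeq windows of GRCm38.p6, from 250 bases before to 50 after a start site, were matched for 9 of the 10 genes (16 windows) and searched on both strands. The ERR element TNAAGGTCA, the PPAR element (AGGTCA repeated with 1 base between), the FoxO element GTAAACA and the cAMP response element TGACGTCA were in 0 of the 16, and in 1.28%, 0.0396%, 3.65% and 1.79% of all 32851 windows. The NRF1 element (GCGCA and GCGC with 1 base between, 4.60% of all windows) was in 1 member window, that of Ppara. The ETS element CCGGAAG, the kind of site that GABP binds (8.86% of all windows), was also in 1, that of Tfam. Both stretches are shown 5′ to 3′ on the gene's strand with the element in capitals, since they are the only matches in the members; the first is chr15:85735719-85735775 (plus strand) with the element's first base at -31 from the start site, the second chr10:71238059-71238117 (minus strand) with its first base at -47.
Ppara: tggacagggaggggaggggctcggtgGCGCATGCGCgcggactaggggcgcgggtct
Tfam: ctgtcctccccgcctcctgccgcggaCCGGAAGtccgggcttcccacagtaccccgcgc
A match is a string of letters and not a measured site. Gabpa, the DNA-binding subunit of GABP, differed by -0.13 ± 0.08 (SE; adjusted p = 0.351 by limma), and its groups overlapped.

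Of 24 partners and cofactors of the receptors tested, 1 rose and 1 fell, which is 8.33% called against 4.7% of all genes. The other 22 did not pass, and the list's median was 0.01. This list and those below were chosen with earlier results of these data known, so their shares describe the lists only. The called genes encode a corepressor and a DNA-binding partner of the PPARs. Nrip1, encoding the corepressor RIP140 that represses genes of oxidative metabolism, gave 9.39, 9.26, 9.39 and 9.25 in control and 9.74, 9.79 and 9.78 in DKO hearts. DKO values lay close together and above every control, a rise of 0.45 ± 0.07 (SE) or 1.37-fold (adjusted p = 0.0236 by limma). Rxrg, the retinoid X receptor typical of striated muscle, gave 13.55, 13.61, 13.47 and 13.43 in control and 13.11, 12.94 and 13.05 in DKO hearts. It fell by 0.48 ± 0.08 (SE) or 1.40-fold without overlap (adjusted p = 0.0268 by limma).

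The other retinoid X receptors, named here after their values were seen, did not pass: Rxrb differed by 0.26 ± 0.07 without overlap (adjusted p = 0.0734 by limma) and the dim Rxra probe by 0.07 ± 0.15. Next by p among the partners were Lpin1, a lipin that is also a PGC-1 cofactor, at -0.26 ± 0.07 and the steroid receptor coactivator Ncoa1 at -0.37 ± 0.09 (adjusted p = 0.0710 and 0.0719 by limma). Perm1, a muscle gene driven by PGC-1 and ERR and also named after its value was seen, differed by 0.02 ± 0.08. Lpin1 and Ncoa1 lie on chromosome 12, as does Akt1. Nrip1 was not called without control replicate 3 or 4 or any single DKO replicate, and Rxrg without these or control replicate 1 (adjusted p from 0.0514 to 0.0824 and from 0.0514 to 0.0862). With slide row in the fit the adjusted p was 0.0619 for Nrip1 and 0.0673 for Rxrg.

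Of 23 tested genes that act upstream of PGC-1alpha, 0 rose and 1 fell, 4.35% called, near the 4.7% of all genes. Fbxw7, the substrate receptor of a ubiquitin ligase that marks PGC-1alpha and other proteins for breakdown, gave 11.98, 11.92, 11.63 and 12.04 in control and 11.26, 11.34 and 11.16 in DKO hearts. Its fall of 0.64 ± 0.12 (SE), 1.56-fold, came without overlap (adjusted p = 0.0322 by limma). The p38 kinase Mapk14 at -0.36 ± 0.09, the muscle transcription factor Mef2d at 0.31 ± 0.09 and the CREB coactivator Crtc3 at 0.28 ± 0.08 followed and did not pass (adjusted p = 0.0640, 0.0866 and 0.0913 by limma). Crtc3 lies on chromosome 7, as does Akt2. The list's median was 0.00. The Fbxw7 call was lost without any single array other than control replicate 3 (adjusted p from 0.0534 to 0.102) and with slide row in the fit (0.0756).

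**Figure D3:**
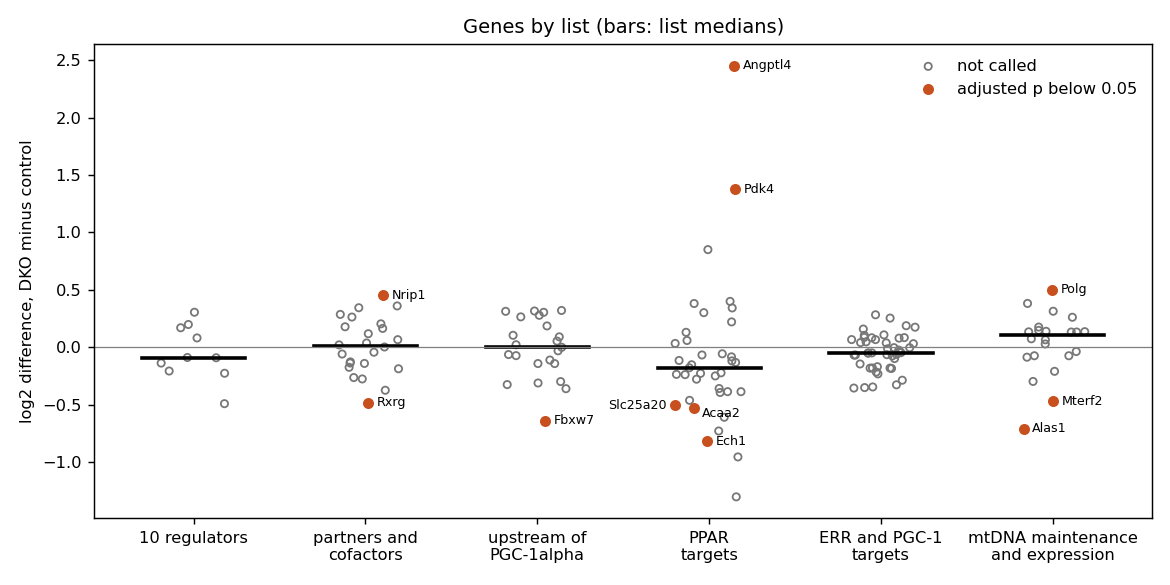
Log2 difference (DKO minus control) of each tested gene of the 10 regulators and of 5 lists of the same pathway; orange points are genes called at an adjusted p below 0.05 and black bars are list medians. The called genes are 2 partners, 1 upstream gene, 5 PPAR targets and 3 genes of mitochondrial DNA maintenance and expression, and the PPAR targets spread most widely.

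PPAR target genes spread far more widely than the regulators. Of 42 listed, 37 were tested, and Cyp4a10, Cyp4a14, Fgf21, Cidec and Vnn1 were left out as too dim. Of the 37, 2 rose and 3 fell, 13.5% called against 4.7% of all genes, and 59.5% had an unadjusted p below 0.05 against 25.5%. Because the list was chosen with earlier results of these data known, these shares are no test of PPAR targets in general. In all 26 of the 37 were lower in DKO, with a median of -0.18 against -0.02 over all genes. Of the cardiomyocyte markers, 7 of 10 were lower, with 0 called and a median of -0.06, and their summed linear signals overlapped between the groups (1854960 to 1942910 in control, 1803450 to 1955980 in DKO); their part in the list's median was not tested.

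The genes that rose curb the use of glucose and of circulating fat rather than break fatty acids down. Angptl4, a secreted inhibitor of lipoprotein lipase, gave 9.46, 9.07, 9.17 and 9.57 in control and 12.30, 11.54 and 11.47 in DKO hearts. The lowest DKO heart was far above the highest control, and the rise was 2.45 ± 0.23 (SE) or 5.48-fold (adjusted p = 0.00677 by limma). Pdk4, the kinase that shuts pyruvate dehydrogenase, gave 13.10, 12.83, 13.10 and 12.91 against 14.56, 14.04 and 14.48, a rise of 1.37 ± 0.14 (SE) or 2.59-fold (adjusted p = 0.00850 by limma).

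The genes that fell belong to beta-oxidation and its supply. Ech1, an auxiliary enzyme for unsaturated fatty acids, gave 16.59, 16.74, 16.57 and 16.54 in control and 15.83, 15.88 and 15.67 in DKO hearts, a fall of 0.82 ± 0.09 (SE) or 1.76-fold (adjusted p = 0.00886 by limma). It lies on chromosome 7, as does Akt2. The thiolase Acaa2 fell by 0.53 ± 0.09 (1.44-fold, adjusted p = 0.0249 by limma) and the carnitine carrier Slc25a20 by 0.50 ± 0.09 (1.42-fold, adjusted p = 0.0292 by limma), both without overlap.

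Angptl4, Pdk4 and Ech1 were called in each of the 7 fits that left out an array. Acaa2 was called only without control replicate 1 or 2, and Slc25a20 only without control replicate 2 (adjusted p elsewhere from 0.0581 to 0.0904 and from 0.0546 to 0.101 by limma). With slide row in the fit Slc25a20 was not called (adjusted p = 0.0646 by limma). The count of called PPAR targets fell to 3 without control replicate 3, control replicate 4, DKO replicate 1 or DKO replicate 3.

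**Figure D4:**
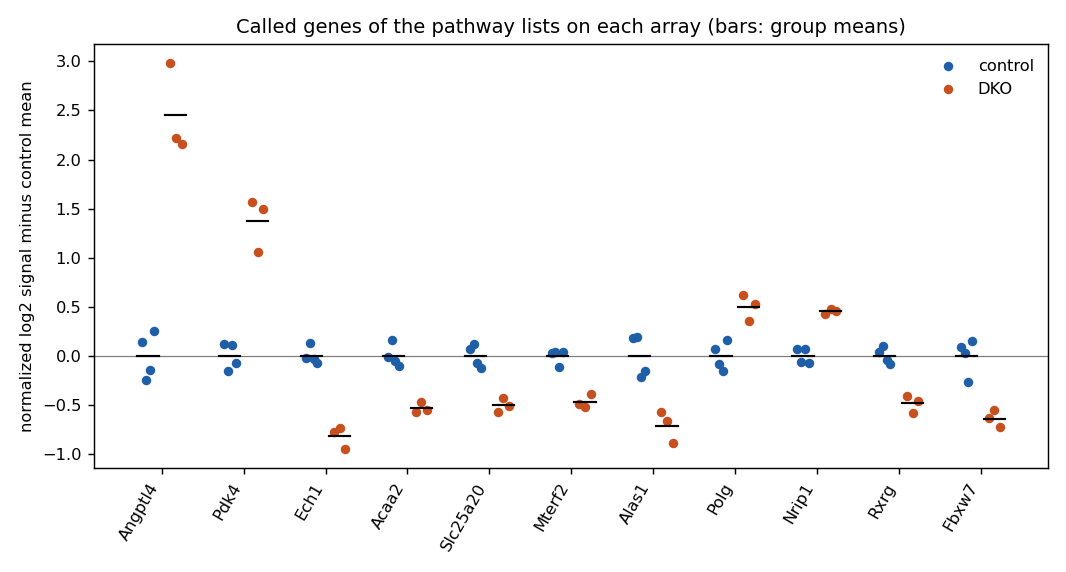
Normalized log2 signal of the 11 called genes of the pathway lists on each array, minus the control mean (blue, 4 control arrays; orange, 3 DKO arrays; black bars, group means). Angptl4 and Pdk4 stand 2.45 and 1.37 above the control mean, and the other 9 genes lie between -0.82 and 0.50.

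Targets shared by ERR and PGC-1, mostly enzymes of the citric acid cycle and subunits of the respiratory chain, held 0 called genes among 45 tested (11 at an unadjusted p below 0.05 by limma, which is 24.4% against 25.5% of all genes). The smallest p belonged to Cycs, the electron carrier cytochrome c, which gave 16.75, 16.68, 16.63 and 16.83 in control and 16.37, 16.45 and 16.31 in DKO hearts. The groups did not overlap and the difference was -0.35 ± 0.08 (SE; adjusted p = 0.0577 by limma). The mitofusin Mfn1 at 0.28 ± 0.07, the electron transfer enzyme Etfdh at -0.35 ± 0.10 and the insulin-regulated glucose transporter Slc2a4 at 0.26 ± 0.08 came next (adjusted p = 0.0797, 0.0988 and 0.110 by limma). Of the 45, 28 were lower, and the median was -0.05.

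Genes that copy and express mitochondrial DNA, or that NRF1 is known to drive, had 1 of 22 tested members rising and 2 falling, 13.6% called against 4.7% of all genes. Alas1, the first enzyme of haem synthesis, gave 15.66, 15.67, 15.26 and 15.32 in control and 14.90, 14.81 and 14.59 in DKO hearts, a fall of 0.71 ± 0.14 (SE) or 1.64-fold (adjusted p = 0.0395 by limma). Mterf2, a mitochondrial transcription termination family member, fell by 0.47 ± 0.08 (SE) or 1.38-fold (adjusted p = 0.0246 by limma). Polg, the catalytic subunit of the mitochondrial DNA polymerase, gave 10.64, 10.49, 10.41 and 10.73 against 11.18, 10.92 and 11.10 and rose by 0.50 ± 0.11 (SE) or 1.41-fold, just past the threshold (adjusted p = 0.0499 by limma). Polg lies on chromosome 7, as does Akt2. Polrmt, the mitochondrial RNA polymerase that works with TFAM, differed by -0.30 ± 0.08 without overlap (adjusted p = 0.0800 by limma).

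Alas1 and Polg were not called in any fit with an array left out (adjusted p from 0.0583 to 0.116 and from 0.0734 to 0.144), and Mterf2 only without control replicate 1, 2 or 3 (elsewhere 0.0576 to 0.0890). With slide row in the fit Mterf2 and Polg were not called (adjusted p = 0.0732 and 0.100 by limma), and the list had 1 called gene, Alas1 (0.0499). The median of the 22 was 0.10. The 13 genes encoded by mitochondrial DNA itself were not matched to a probe and were not analysed here.

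The 15 promoter windows available for the 11 called genes were searched for the same elements, and 0 held the PPAR, ERR or FoxO element. Not all of the 11 had a window. The ETS element seen in Tfam (8.86% of all windows) was in 2 of the 15, those of Polg and Slc25a20, a gene that rose and a gene that fell. Their stretches are shown beside that of Tfam above, with the element in capitals; they are chr7:79466279-79466337 (minus strand) and chr9:108662031-108662089 (plus strand) in GRCm38.p6, with the element's first base at -38 and -79 from the start site.
Polg: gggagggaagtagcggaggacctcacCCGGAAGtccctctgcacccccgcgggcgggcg
Slc25a20: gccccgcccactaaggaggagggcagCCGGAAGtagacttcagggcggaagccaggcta
The NRF1 element (4.60% of all windows) was in both windows of Alas1, which overlap and hold the same matches. It was in 0 of the other called genes that were searched.

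Pparg had the smallest p of the 10 regulators, and the genes that tracked it most closely over the 7 arrays were Tcta (Pearson r = 0.994), Fcho2 (0.989), the autophagy kinase Ulk1 (0.987), Exosc4 (0.985) and Tshz3 (0.983), out of 13714 genes with a symbol that were above background on all arrays. These correlations describe 7 arrays in 2 groups and carry no test. Of the 5, none was called (adjusted p from 0.0632 for Tcta to 0.385 for Exosc4 by limma).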

How the data were processed

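The authors quantified the 1-colour arrays with Feature Extraction 12.0.3.1 (design 074809, 62976 spots), and the deposited scanner files hold the processed signal as a background-subtracted intensity on a linear scale, per the file headers. A value table that the authors deposited is in log2 units and matched quantile-normalized, probe-centred values of these arrays (r = 0.99999, column medians of 0); how it was made is not given in the sources used. All 7 arrays lie on 1 slide read in 1 scan. Slide row 1 held 3 control and 1 DKO array, and slide row 2 held 1 control and 2 DKO arrays, so slide row is partly confounded with the comparison.

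Control and outlier-flagged spots were left out, each array's 75th percentile of log2 processed signal was subtracted, and the mean percentile (9.14) was added back. Probes were named through accessions in a RefSeq table of GRCm38.p6 (32994 of 56605). Ppargc1b and the called gene Acaa2 lie on the same chromosome, whose windows were not in the promoter search. Probes well above background on at least 3 arrays were kept, and each gene was read from its brightest kept probe (23678 genes). limma 3.58.1 in R 4.3.3 compared 3 DKO with 4 control arrays, two-sided, with Benjamini-Hochberg adjustment over all genes, or over 30466 probes for single probes. The fit was tested on simulated data, with recovery required only for changes larger than any seen in the regulators. The files have no mean signal, so normexp alternatives (offset 50) used the median signal. Alternatives were other scalings, filters, variance models, array weights, blocks for replicate number and slide row, and each array left out.

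The members and lists were chosen with earlier results of these data known. Named genes were all members, all called list genes (at most 8 per list), up to 4 genes of smallest p per list with fewer than 4 called, and the 5 genes most like the member of smallest p. Each mouse is its own sample, per the labels.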

Additional observations from a re-analysis of the deposited data

Results flagged for a closer look

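In 18 groups of 4 control values, 1 per probe of the regulators, 2 held an array that stood apart from the other 3 by the criterion used, which chance meets in about 1 of 20 groups. Esrra was at 14.44 in control replicate 4, with the nearest other control at 14.555. The second Nrf1 probe was at 8.01 in control replicate 1, with the nearest other control at 7.90.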

How the results depend on the processing

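Of the 10 regulators, the count called stayed at 0 under every setting except trended and robust variances, where 1 gene (Pparg) and 2 probes (of Pparg and Ppargc1b) were called; array weights called 1 probe (of Nrf1). Over all genes, 1114 were called. That count became 380 without normalization between arrays, 549 with normexp and the 75th percentile, 709 with normexp and quantile normalization, 121 with no filter on dim probes, 2028 with trended and robust variances, 1680 with array weights and 288 with slide row as a block. The higher share of called genes was 51.3%, against 31.3% without normalization between arrays and 34.1% without control replicate 2. Called partners (2) numbered 0 without normalization, without a filter or with slide row, 1 with either normexp setting, 6 with trended variances and 4 with array weights. For genes upstream of PGC-1alpha (1) the count was 0 without normalization, without a filter and with slide row, 2 with normexp and quantile or with signal on all 7 arrays, and 3 with probes averaged per gene or trended variances. For PPAR targets (5) it was 3 without normalization or a filter, 13 with trended variances and 8 with array weights. ERR and PGC-1 targets (0) gave 1 with normexp and quantile or with signal on all 7 arrays, 6 with trended variances and 2 with array weights. Mitochondrial DNA genes (3) gave 1 without normalization, with normexp and the 75th percentile or with slide row, and 0 without a filter. The cause was not tested in any of these. Leaving out 1 array gave 160 to 1127 called genes in all, 0 regulators, 0 to 2 partners, 0 to 1 upstream genes, 3 to 5 PPAR targets, 0 ERR and PGC-1 targets and 0 to 1 mitochondrial DNA genes.

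With the replicate number as a block, 1 gene was called in all and 0 in each list. Controls and DKO hearts of the same number correlated in their deviations from the group means at 0.13, 0.01 and 0.03. Control replicates 1 and 3 correlated best with the DKO heart of their own number, and control replicate 2 with DKO replicate 3 (0.04). The highest value was between control replicate 4 and DKO replicate 3 (0.17). Correlations this weak cannot decide whether samples of the same number were paired, and the labels state no pairing.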

Other observations

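Among PPAR targets that did not pass, the uncoupling protein genes Ucp2 and Ucp3 set DKO replicate 2 apart from the other DKO hearts; they were picked after their values were seen. Ucp2 gave 11.06, 11.18, 10.50 and 10.96 in control replicates 1 to 4 and 9.05, 10.84 and 8.99 in DKO replicates 1 to 3. Ucp3 gave 11.42, 11.05, 10.63 and 10.92 in control and 9.73, 11.06 and 9.38 in DKO hearts. On both genes DKO replicates 1 and 3 lay below all controls while DKO replicate 2 lay inside their range, and the differences were -1.30 ± 0.45 and -0.95 ± 0.40 (SE; adjusted p = 0.138 and 0.192 by limma). Both genes lie on chromosome 7, as does Akt2.

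The isoforms of carnitine palmitoyltransferase 1, which admits long-chain fatty acids to mitochondria, lay on opposite sides, also picked after their values were seen. The liver-type Cpt1a gave 10.81, 10.90, 10.65 and 10.63 in control and 11.25, 11.04 and 11.10 in DKO hearts. The muscle-type Cpt1b gave 13.88, 14.00, 13.97 and 13.90 against 13.83, 13.76 and 13.56. Neither pair of groups overlapped, and neither difference passed (0.38 ± 0.10 and -0.22 ± 0.09, SE; adjusted p = 0.0735 and 0.176 by limma).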
